A study of Mus musculus with 24 samples.

Results

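The 10 genes described here carry out calcium uptake, release and storage at the sarcoplasmic reticulum of muscle fibres. They were chosen by name, through the Ensembl identifiers of the count table, from 55416 genes in all. They are Atp2a1 (ENSMUSG00000030730), Atp2a2 (ENSMUSG00000029467), Sln (ENSMUSG00000042045), Pln (ENSMUSG00000038583), Ryr1 (ENSMUSG00000030592), Cacna1s (ENSMUSG00000026407), Jph1 (ENSMUSG00000042686), Casq1 (ENSMUSG00000007122), Casq2 (ENSMUSG00000027861) and Pvalb (ENSMUSG00000005716). RNA was sequenced from the gastrocnemius, a hind-limb muscle of mixed fibre type, in 6 sham and 6 SMC males and in 6 sham and 6 SMC females. SMC stands for the small mouse cage, which restricted movement for 8 weeks, and sham mice stayed ambulatory. All mice were wild type, of the strain labelled C56BL6J and bought as C57BL/6J at 8 weeks of age, and all were fasted before tissue collection. A library is 1 mouse, and libraries are named by group and by the number in their label. Total counts per library ranged from 23026627 to 36880413. All 10 genes passed the filter on low counts, which kept 16408 genes.

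In a fibre at rest calcium is held in the lumen of the sarcoplasmic reticulum. An action potential moves the voltage sensor encoded by Cacna1s, which opens the release channel encoded by Ryr1 at a junction held together by junctophilins such as Jph1. The pumps encoded by Atp2a1 (SERCA1, of fast fibres) and Atp2a2 (SERCA2, of slow fibres and heart) return the calcium, and the small membrane peptides sarcolipin (Sln) and phospholamban (Pln) inhibit them. Calsequestrins bind calcium inside the store, Casq1 mainly in fast fibres and Casq2 mainly in heart and slow fibres, and parvalbumin (Pvalb) binds it in the cytosol of fast fibres.

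Levels between genes were compared as CPM, read counts scaled to a common library size, per kilobase of exon, with exon lengths from GENCODE M21. Over the 24 mice the median level was 6868 CPM per kb for Atp2a1, 3424 for Pvalb, 751 for Casq1, 405 for Ryr1 and 218 for Cacna1s. Lower levels were measured for Jph1 (87.9), Atp2a2 (82.2), Casq2 (9.80), Sln (1.40) and Pln (0.760). From Atp2a1 down to Jph1 each gene exceeded the next in all 24 mice, so that the products of fast fibres stood at the top. Jph1 and Atp2a2 could not be ordered, because Jph1 was below Atp2a2 in 11 of 24 mice. Casq2 was below Sln in 1 mouse, and Sln was below Pln in 5 mice. Atp2a1 alone took 2.02 to 3.38% of all counts of a library, and Ryr1 took 0.592 to 1.07%. At the other end Sln rested on 7 to 142 reads per mouse and Pln on 14 to 112, so that counting error adds to the spread between mice for both.

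**Figure D1:**
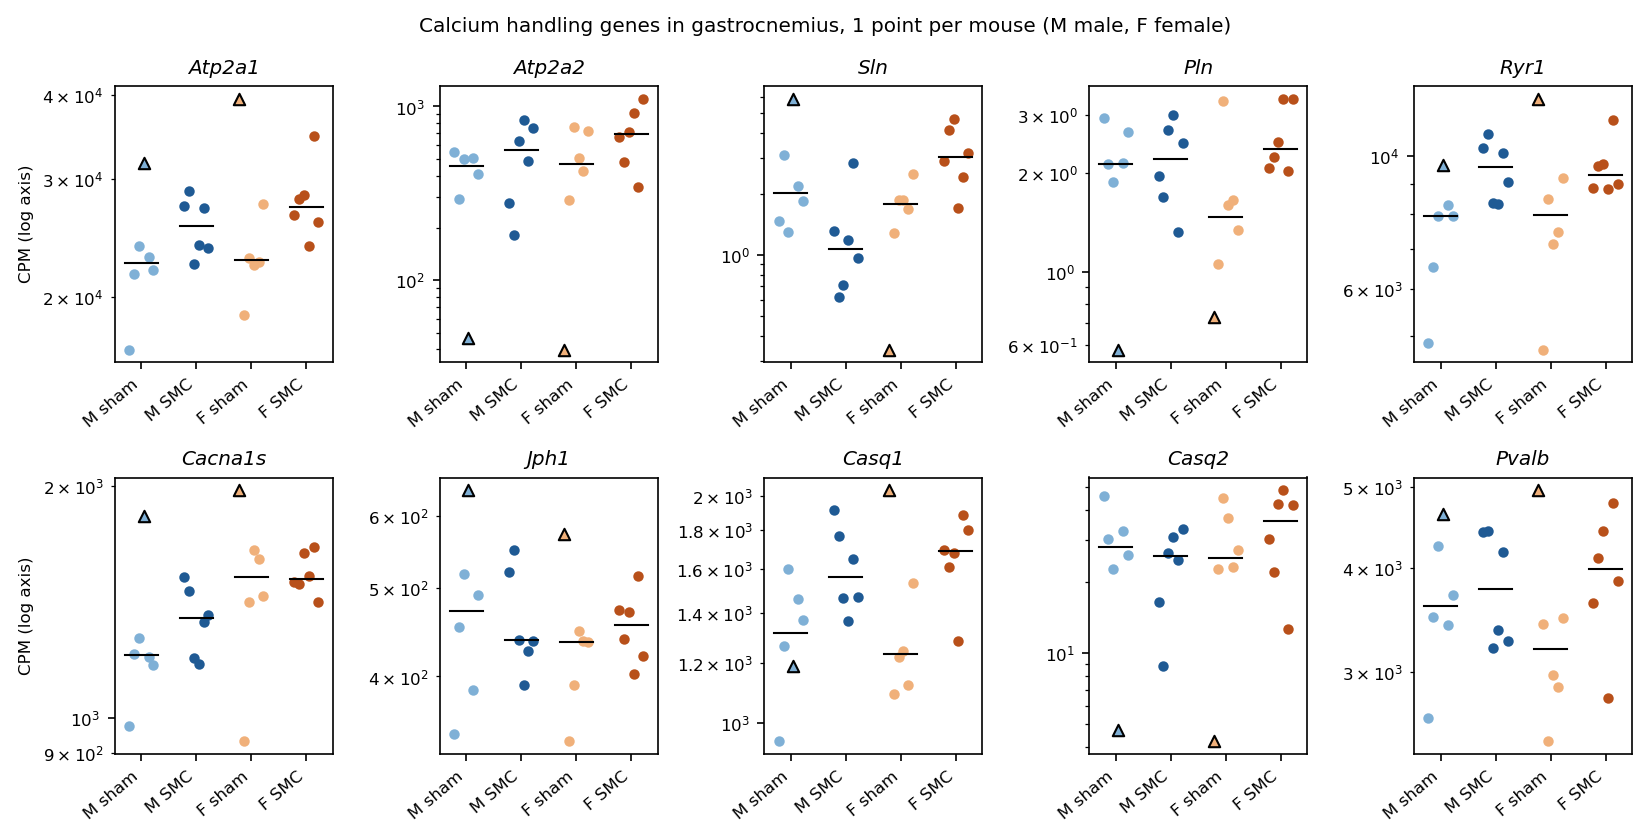
CPM of each of the 10 genes in each mouse on a log axis, by group, with a bar at the group median; triangles mark male sham 4 and female sham 7. The triangles lie far below the other sham mice for Atp2a2 and Casq2, and at or near the top for Atp2a1 and Cacna1s.

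Male sham 4 and female sham 7 stood apart from the other 22 libraries in their slow fibre markers. The summed level of 8 slow fibre markers, among them Myh7, Myl2 and Tnnt1, was 40.2 CPM in male sham 4 and 32.4 CPM in female sham 7, and the other sham mice ranged from 927 to 2412 CPM. SMC mice ranged from 523 to 3441 CPM. Skeletal muscle markers were present in every library, with Acta1, Ckm, Des and Myod1 at 28684 to 48403 CPM in sum. Both libraries are sham, so the SMC estimates are given with and without them. In pieces of whole muscle, fewer cells of a type and less RNA per cell cannot be told apart.

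Among these 10 genes, Atp2a2, Casq2 and Pln were low in both libraries. Atp2a2 was at 46.4 CPM in male sham 4 and 39.8 CPM in female sham 7, against 292 to 758 CPM in the other sham mice. Casq2 was at 4.76 and 4.24 CPM in them, against 22.6 to 45.9 CPM. Pln was at 0.579 CPM (14 reads) and 0.731 CPM (15 reads), against 1.06 to 3.31 CPM. The fast pump was not low there. Atp2a1 was at 31736 CPM in male sham 4 and 39550 CPM in female sham 7, each the highest of its group. Sln parted the libraries, with the highest value of all mice in male sham 4 (5.88 CPM, 142 reads) and the lowest in female sham 7 (0.341 CPM, 7 reads).

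The spread within groups was widest for Atp2a2, Casq2, Sln and Pln. The pooled standard deviation of log2 CPM within groups was 1.17 for Atp2a2, 0.978 for Casq2, 0.759 for Sln and 0.595 for Pln, against a median of 0.261 over all genes tested. For the other 6 genes it lay between 0.231 and 0.308. Without male sham 4 and female sham 7 it was 0.644 for Atp2a2, 0.609 for Casq2, 0.549 for Sln and 0.416 for Pln, still above the median gene (0.236).

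Mice of the same group that had more of one slow gene had more of the others. For this the group mean was taken from each log2 CPM value, and Pearson's r and Spearman's rho were computed over the 22 remaining libraries, with p-values from 100000 permutations within groups. The 2 libraries left out form a cluster of their own that is too small for a correlation. A slow fibre score, the mean log2 CPM of the 8 markers, was set against each of the 10 genes, and p-values were adjusted over these 10 relations. Atp2a2 followed it with r = 0.97 and rho = 0.97 (permutation p = 1e-05 for both, the smallest the permutations can give; adjusted p = 5e-05 and 0.0001). Casq2 followed with r = 0.88 and rho = 0.82 (permutation p = 1e-05 and 8e-05; adjusted p = 5e-05 and 0.0004). Pln was less close, at r = 0.56 and rho = 0.67 (permutation p = 0.0107 and 0.00234; adjusted p = 0.0214 and 0.0078). After the 2 mice farthest from the median score were left out as well, r was 0.95, 0.83 and 0.59.

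The remaining genes, among them Atp2a1, Casq1 and Pvalb of fast fibres, were inversely related to the score or showed no relation that passed. Pvalb was lower where the score was higher, at r = -0.64 and rho = -0.66 (permutation p = 0.00358 and 0.00407; adjusted p = 0.0119 and 0.00814), and r was -0.56 without the 2 farthest mice. Jph1 gave r = -0.59 and rho = -0.65 (permutation p = 0.00706 and 0.00327; adjusted p = 0.0176 and 0.00814), but r was -0.38 without these mice, so that much of it rests on them. Sln showed no relation that could be detected, with r = 0.061 and rho = -0.043 (permutation p = 0.843 and 0.867). For Atp2a1, Ryr1, Cacna1s and Casq1 r lay between -0.46 and -0.24, and none had an adjusted p under 0.05 for r (lowest 0.0504). In rho, Atp2a1 (-0.52, adjusted permutation p = 0.0373) and Cacna1s (-0.47, adjusted permutation p = 0.0482) passed, and r for Cacna1s was -0.019 without the 2 farthest mice.

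**Figure D2:**
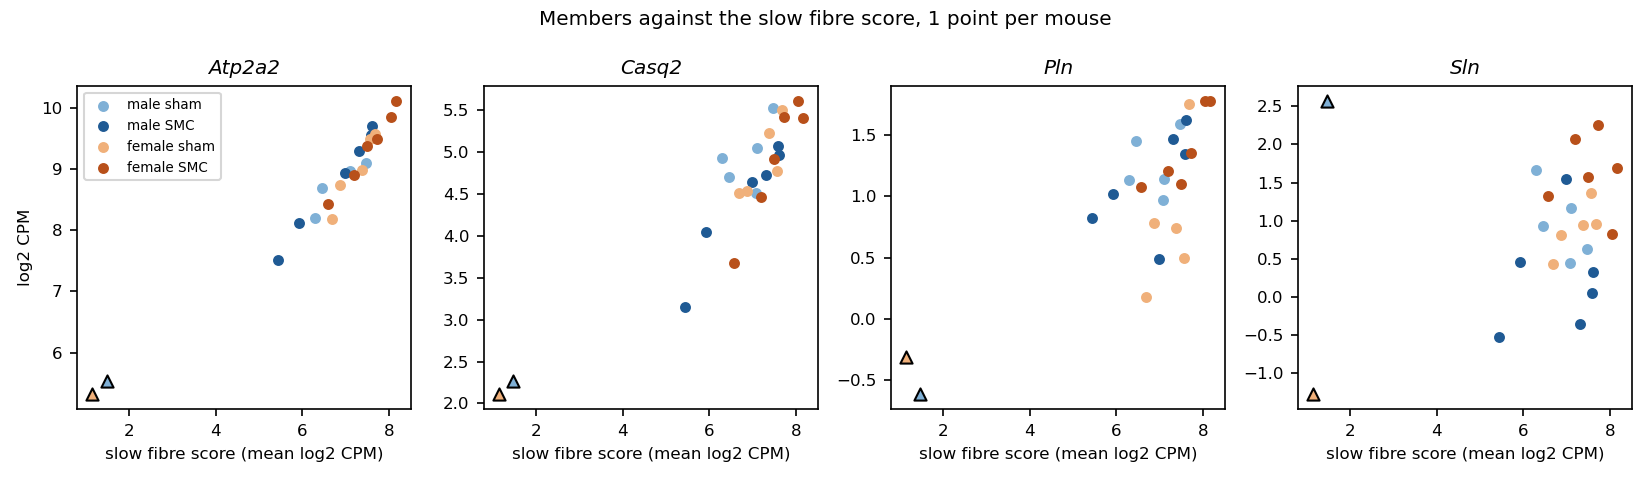
Log2 CPM of Atp2a2, Casq2, Pln and Sln in each of 24 mice against the slow fibre score (mean log2 CPM of 8 markers), coloured by group; triangles mark male sham 4 and female sham 7. Atp2a2 and Casq2 climb with the score in all groups, and Sln has its highest and its lowest value in the libraries marked by triangles.

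The 45 pairs among the 10 genes fell into the same blocks. In 22 of 45 pairs both r and rho had an adjusted p under 0.05. The share of pairs of other genes that would pass was not computed, nor the share of all genes that would pass with the slow fibre score. These counts are therefore not results particular to the 10 genes. Atp2a1 and Ryr1 were the closest pair, with r = 0.90 and rho = 0.90 over 22 mice (permutation p = 1e-05 for both; adjusted p = 0.000337 and 0.00045), and r was 0.86 without the 2 mice farthest in Atp2a1. Atp2a1 with Casq1 gave r = 0.86 and rho = 0.85 (permutation p = 2e-05 for both; adjusted p = 0.000337 and 0.00045), and r = 0.81 without the 2 farthest. Atp2a2 with Casq2 gave r = 0.85 and rho = 0.80 (permutation p = 4e-05 and 0.00015; adjusted p = 0.00036 and 0.00135), and r = 0.78 without the 2 farthest. Between the blocks r was below 0, but in some pairs it was close to 0. Pln with Cacna1s gave r = -0.038, and Atp2a2 with Ryr1 gave r = -0.092, which became 0.057 without the 2 farthest mice. Neither of these pairs passed. Other pairs between the blocks were more strongly inverse. Casq2 with Pvalb gave r = -0.73 and rho = -0.79 (permutation p = 0.00035 and 0.00021; adjusted p = 0.00175 and 0.00154), and r = -0.71 without the 2 farthest. Ryr1 with Cacna1s, the channel and its voltage sensor, gave r = 0.78 and rho = 0.68 (permutation p = 0.00281 and 0.00234; adjusted p = 0.0079 and 0.00752), but r fell to 0.38 without the 2 farthest mice. None of the 9 pairs with Sln passed. All values of a mouse share its library and its scaling factor.

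**Figure D3:**
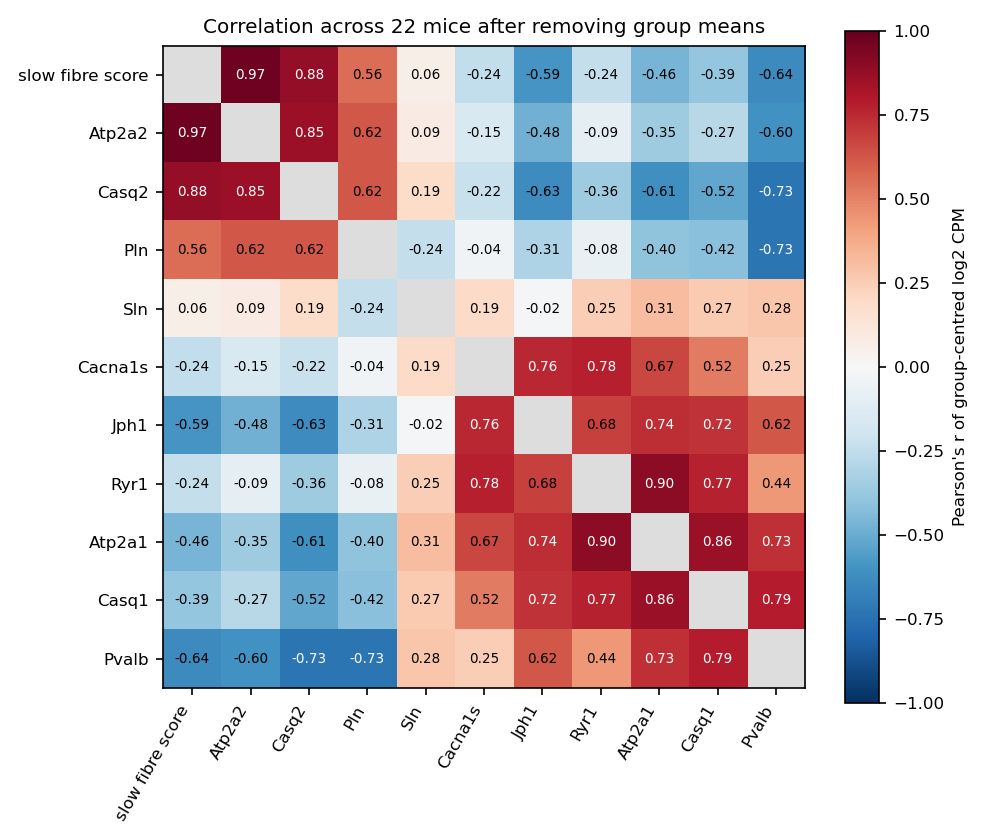
Pearson's r of group-centred log2 CPM over 22 mice, for each pair of the 10 genes and for each gene with the slow fibre score; red is positive, blue negative and grey the diagonal. Atp2a2, Casq2 and Pln form a positive block with the score (0.56 to 0.97), the 6 genes from Cacna1s to Pvalb form a second one, and Sln belongs to neither.

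SMC was then compared with sham to ask whether restricted movement changed these genes, by edgeR's quasi-likelihood test over all 16408 genes with Benjamini-Hochberg adjustment and a false discovery rate (FDR) under 0.05. None of the 10 genes was called in males, in females, averaged over the sexes, in the sex difference of the response, or between sham males and sham females. Of all genes tested, 0% were called in males, 0.341% in females, 2.36% averaged over the sexes, 0% in the sex difference and 1.97% between the sham groups. DESeq2 and limma with sample weights called none of the 10 either. At an unadjusted p under 0.05, 2 of the 10 stood out in males (Casq1 higher, Sln lower), 2 in females (Sln and Pln higher), 2 in the average (Casq1 and Ryr1 higher), 1 in the sex difference (Sln) and 0 between the sham groups. Of all genes tested, 11% were under that p in males, 12.5% in females, 17.5% in the average, 5.13% in the sex difference and 15.5% between the sham groups, in either direction, so that 0 to 2 of these 10 is not a result about them. The median log2 fold change of the 10 was 0.077 in males and 0.25 in females, against -0.0044 and -0.011 over all genes tested. In females all 10 estimates were above 0, but those of Cacna1s and Jph1 turned negative (-0.068 and -0.061) on library totals without TMM scaling, and that of Cacna1s (-0.0025) on library sizes without the 10 genes of most counts. In no comparison did the 6 mice of 1 group all lie above or below the 6 of the other for any of the 10 genes, which 0.902% of all genes did in males, 1.03% in females and 1.13% between the sham groups.

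Markers of another cell type moved with SMC. The summed level of 5 smooth muscle markers was 136 to 174 CPM in male sham and 204 to 326 CPM in male SMC, and 144 to 207 CPM in female sham and 180 to 289 CPM in female SMC. Averaged over the sexes 4 of the 5 were called higher, namely Acta2, Myh11, Cnn1 and Smtn, and none was at 0 in any library. Within males and within females edgeR called 0 of these smooth muscle markers (lowest edgeR FDR = 0.0901 and 0.160). Their part in the values below was not tested. In the lists of slow fibre (8 genes), fast fibre (9), skeletal muscle (4), endothelial (4), adipocyte (4), macrophage (4) and Schwann cell (4) markers, edgeR called 0 genes in males, in females or in the average. At an unadjusted p under 0.05 the average had 1 endothelial and 1 Schwann cell marker, both higher. Between the sham groups edgeR called 1 gene of these lists, the skeletal muscle marker Myod1. It was higher in sham males (log2 fold change 0.60, edgeR FDR = 0.0487), where 1.97% of all genes were called.

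Sln, the inhibitor of the pumps that stood outside both blocks, had estimates of opposite sign in the sexes, though none passed the test. Male sham mice ranged from 1.29 to 5.88 CPM (median 2.01) and male SMC mice from 0.622 to 2.84 CPM (median 1.07). Female sham mice ranged from 0.341 to 2.49 CPM (median 1.77) and female SMC mice from 1.70 to 4.69 CPM (median 3.04). Of 6 SMC males 4 lay below every sham male, and of 6 SMC females 4 lay above every sham female. Within SMC housing, 5 of 6 males lay below every female. The log2 fold change was -1.04 (SE 0.408, unadjusted p = 0.0179, edgeR FDR = 0.337) in males and 0.98 (SE 0.399, unadjusted p = 0.0219, edgeR FDR = 0.292) in females. The difference of the responses, males minus females, was -2.01 on the log2 scale (SE 0.571, 95% CI -3.19 to -0.84, unadjusted p = 0.00170, edgeR FDR = 0.926). It did not pass the correction over all genes, of which 492 had a positive and 349 a negative difference at an unadjusted p under 0.05. The libraries that stand apart lie at the ends of the sham ranges, and without both the changes were -0.64 in males and 0.79 in females and the difference was -1.43 (unadjusted p = 0.00527, edgeR FDR = 0.529). Male SMC 17, at 2.84 CPM, was the SMC male farthest from the rest, and without it the change in males was -1.46.

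Pln, which encodes phospholamban, had a positive estimate in SMC females that passed at an unadjusted p but not after adjustment. Female sham mice ranged from 0.731 to 3.31 CPM (median 1.47) and female SMC mice from 2.04 to 3.37 CPM (median 2.36). All SMC females lay above the sham median, and 5 of 6 sham females lay below every SMC female. Female sham 9, at 3.31 CPM, was the exception. The log2 fold change was 0.67 (SE 0.313, unadjusted p = 0.0432, edgeR FDR = 0.379). It was 0.53 without the 2 libraries and 1.01 (edgeR FDR = 0.0975) without female sham 9. In males the ranges were 0.579 to 2.94 CPM in sham (median 2.13) and 1.33 to 3.01 CPM in SMC (median 2.21), and the log2 fold change was 0.080 (SE 0.310, edgeR FDR = 0.956), or -0.11 without male sham 4. Of the exon bases of Pln in GENCODE M21, 59.6% are shared with Gm47644 on the opposite strand, and it is not stated whether counting used strand, so that reads of both may be joined.

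The pumps themselves showed no difference that passed the test. Atp2a1 ranged from 16672 to 31736 CPM in male sham (median 22463) and from 22424 to 28782 CPM in male SMC (median 25534). In females it ranged from 18810 to 39550 CPM in sham (median 22687) and from 23840 to 34769 CPM in SMC (median 27255). All 6 SMC females and 5 of 6 SMC males lay above the sham median of their sex, while the highest value of each sex was that of a sham library, male sham 4 or female sham 7. The average log2 fold change was 0.13 (SE 0.118, edgeR FDR = 0.601), and 0.27 (edgeR FDR = 0.0973) without these libraries. Of its exon bases, 21.9% are shared with the protein-coding gene Rabep2 on the opposite strand.

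Atp2a2 ranged from 46.4 to 549 CPM in male sham (median 454) and from 183 to 837 CPM in male SMC (median 560). In females it ranged from 39.8 to 758 CPM in sham (median 467) and from 345 to 1110 CPM in SMC (median 691). The groups overlapped widely in both sexes. The average log2 fold change was 0.54 with a wide error (SE 0.362, 95% CI -0.20 to 1.29, edgeR FDR = 0.463), and 0.30 without the 2 libraries. The 8 slow fibre markers had a median average log2 fold change of 0.57, with 7 estimates above 0 and none called, and their part in the value for Atp2a2 was not tested.

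**Figure D4:**
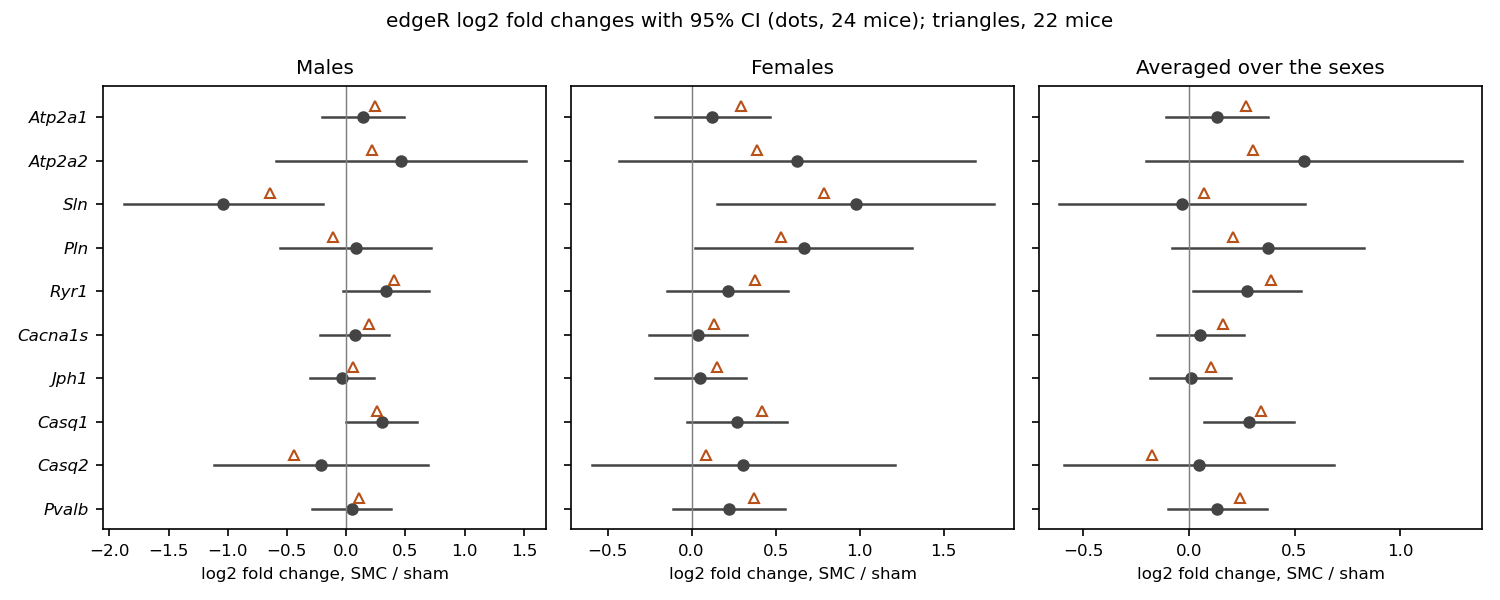
Log2 fold change of SMC against sham for the 10 genes in males, in females and averaged over the sexes, with 95% confidence intervals (dots, edgeR, 24 mice); triangles give the value without male sham 4 and female sham 7. Sln lies at -1.04 in males and 0.98 in females, and the Casq1 and Ryr1 intervals of the average lie just above 0.

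For Ryr1 and Casq1, the release channel and the calcium store protein, every SMC mouse lay above the sham median of its sex. The share of all genes for which this holds was not computed, so it is given only as a description. Ryr1 ranged from 4877 to 9672 CPM in male sham (median 7945) and from 8328 to 10886 CPM in male SMC (median 9590.0), and 5 of 6 sham males lay below every SMC male. In females it ranged from 4746 to 12494 CPM in sham (median 7978) and from 8834 to 11494 CPM in SMC (median 9305), and 4 of 6 sham females lay below every SMC female. Averaged over the sexes the log2 fold change was 0.28 (SE 0.123, 95% CI 0.021 to 0.53, unadjusted p = 0.0353, edgeR FDR = 0.240). Without male sham 4 and female sham 7, the second of which had the highest Ryr1 of all mice, it was 0.39 and passed the threshold (edgeR FDR = 0.0498), as did 3.18% of all genes tested in that setting. Other settings lowered the average. It was 0.21 without female sham 8, and 0.18 on library totals without TMM, where the median of all genes was -0.14. Female sham 8 and male sham 1 had the largest TMM factors (1.32 and 1.21) and the lowest Ryr1 (4746 and 4877 CPM). In females alone the change was 0.22, and 0.095 without female sham 8. Over 22 mice Ryr1 and the smooth muscle score gave r = 0.46 and rho = 0.54 (permutation p = 0.0117 and 0.0100; adjusted over 10 relations p = 0.112 and 0.100), and r was 0.36 without the 2 farthest mice. Atp2a1 (r = 0.46) and Casq2 (r = -0.55) had the same adjusted permutation p for r (0.112). None of the 10 genes passed. Without the 2 farthest mice r was 0.23 for Atp2a1 and -0.022 for Casq2. The part of these relations in the differences was not tested.

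Casq1 ranged from 945 to 1596 CPM in male sham (median 1317) and from 1365 to 1914 CPM in male SMC (median 1559). In females it ranged from 1094 to 2034 CPM in sham (median 1234) and from 1285 to 1884 CPM in SMC (median 1688). In males 3 of 6 SMC mice lay above every sham mouse, and in females none did, female sham 7 having the highest value. The average log2 fold change was 0.28 (SE 0.102, 95% CI 0.073 to 0.50, unadjusted p = 0.0104, edgeR FDR = 0.138). It was 0.34 (edgeR FDR = 0.0438) without both libraries and 0.35 (edgeR FDR = 0.0353) without female sham 7 alone, where 2.83% of all genes were called. In the other direction it was 0.24 without male sham 1 and 0.17 on library totals without TMM. A small share of its exon bases (156 of 1951) overlaps the antisense gene Gm17224. In the sex difference of the response, Casq1 and Ryr1 gave 0.029 and 0.12 on the log2 scale (SE 0.205 and 0.247), with 95% CIs from -0.39 to 0.45 and from -0.39 to 0.63.

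The heart and slow form Casq2 showed no such pattern. It ranged from 4.76 to 45.9 CPM in male sham (median 28.1), from 8.82 to 33.5 CPM in male SMC (median 25.6), from 4.24 to 45.0 CPM in female sham (median 25.2) and from 12.7 to 48.7 CPM in female SMC (median 36.2). The average log2 fold change was 0.047 (SE 0.309, 95% CI -0.59 to 0.69), and -0.17 without the 2 libraries. The start regions of the calsequestrin pair are shown because these genes have the same task and were inversely related between mice, with r = -0.52 and rho = -0.52 over 22 mice (permutation p = 0.0132 and 0.0189; adjusted p = 0.0284 and 0.034) and r = -0.55 without the 2 farthest. Each is the 250 bases before the RefSeq start on GRCm38.p6, read 5′ to 3′ along the gene, at chr1:172219896-172220145 on the minus strand for Casq1 and chr3:102086165-102086414 on the plus strand for Casq2. Capitals mark E-boxes, the 6-letter motif CANNTG that myogenic transcription factors are known to bind, which reads the same on both strands.
Casq1: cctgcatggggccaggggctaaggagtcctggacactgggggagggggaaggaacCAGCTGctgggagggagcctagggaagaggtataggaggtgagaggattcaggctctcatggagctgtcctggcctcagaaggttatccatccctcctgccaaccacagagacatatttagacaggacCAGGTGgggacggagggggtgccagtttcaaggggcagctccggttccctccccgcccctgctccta
Casq2: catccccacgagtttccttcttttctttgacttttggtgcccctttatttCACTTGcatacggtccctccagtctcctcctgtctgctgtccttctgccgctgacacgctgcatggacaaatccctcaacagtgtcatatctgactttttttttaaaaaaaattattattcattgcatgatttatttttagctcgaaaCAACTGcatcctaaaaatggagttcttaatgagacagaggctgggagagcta
Each holds 2 E-boxes, and no 2 of them overlap. The motif is common, since 66.2% of 32851 promoter windows of this length hold at least 1. Of the 10 genes 7 have a window in the table used. Atp2a1 and Pln hold 1 match, Cacna1s holds 2, Ryr1 holds 0, and Pvalb, with 2 start sites, holds 1 and 0.

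Cacna1s, Jph1 and Pvalb, of the voltage sensor, the junction and the cytosolic buffer, overlapped widely between the housing groups. Cacna1s ranged from 976 to 1824 CPM in male sham (median 1205) and from 1176 to 1524 CPM in male SMC (median 1346), and from 932 to 1973 CPM in female sham (median 1523) and from 1414 to 1666 CPM in female SMC (median 1515). Its average log2 fold change was 0.054 (95% CI -0.15 to 0.26), and 0.16 (edgeR FDR = 0.266) without the 2 libraries. Some of its exon bases (1309 of 6550) are shared with the antisense gene Gm37759. Jph1 ranged from 346 to 640 CPM in male sham and 391 to 550 CPM in male SMC, and from 340 to 573 CPM in female sham and 403 to 516 CPM in female SMC. Its average log2 fold change was 0.0082, with a 95% CI of -0.18 to 0.20, and 0.10 (edgeR FDR = 0.478) without the 2 libraries. Pvalb ranged from 2645 to 4646 CPM in male sham and 3209 to 4434 CPM in male SMC, and from 2478 to 4961 CPM in female sham and 2794 to 4788 CPM in female SMC. Its average log2 fold change was 0.13 (95% CI -0.10 to 0.37), and 0.24 (edgeR FDR = 0.176) without the 2 libraries. These intervals do not show that the levels were equal.

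Between sham males and sham females, the largest estimate of the 10 was that of Sln, higher in males by 0.70 on the log2 scale (SE 0.400, unadjusted p = 0.0939, edgeR FDR = 0.417). It was 0.11 without male sham 4 and female sham 7. For Cacna1s the estimate was -0.24 (SE 0.141, edgeR FDR = 0.441), and the other 8 lay between -0.25 and 0.34.

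Ratios of read counts within a mouse cancel the library's scaling, and 5 were compared between SMC and sham within each sex, two-sided, by exact permutation of the labels (924 relabelings), adjusted over the 10 tests. The release channel relative to its voltage sensor gave the lowest p of the 10. In males the ratio of Ryr1 to Cacna1s counts ran from 4.998 to 6.90 in sham (median 5.83) and from 6.66 to 7.59 in SMC (median 7.05). In females it ranged from 4.33 to 6.39 in sham (median 5.56) and from 5.78 to 6.90 in SMC (median 6.14). All 12 SMC mice lay above the sham median of their sex, and 4 of 6 SMC males lay above every sham male. The difference of mean log2 ratios was 0.27 in males (exact permutation p = 0.0152, adjusted p = 0.152) and 0.20 in females (exact permutation p = 0.110, adjusted p = 0.368), so neither passed the correction. Leaving out any 1 library kept it between 0.22 and 0.31 in males and between 0.14 and 0.25 in females.

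The fast to slow ratios were dominated by the libraries that stand apart. Atp2a1 to Atp2a2 was 684 in male sham 4 and 994 in female sham 7, and the other sham mice ranged from 30.1 to 73.5. SMC mice ranged from 28.6 to 157 in males and from 23.3 to 101 in females. Casq1 to Casq2 was 249 and 477 in these libraries, and 20.6 to 70.3 in the other sham mice. SMC mice ranged from 43.8 to 200.3 in males and from 26.4 to 149 in females. The difference for Casq1 to Casq2 was 0.37 in males (exact permutation p = 0.548) and -0.18 in females (exact permutation p = 0.833), and it became 0.80 without male sham 4 and 0.41 without female sham 7. The SMC minus sham difference for Atp2a1 to Atp2a2 was -0.45 in males (exact permutation p = 0.639) and -0.82 in females (exact permutation p = 0.424), and it became 0.19 without male sham 4 and -0.076 without female sham 7. Sln to Atp2a2, the sarcolipin message per pump message of slow fibres, differed by -1.64 in males (exact permutation p = 0.0887, adjusted p = 0.368) and by 0.14 in females (exact permutation p = 0.747). It became -0.82 in males without male sham 4 and 0.37 in females without female sham 7. Pln to Atp2a2 gave -0.42 in males (exact permutation p = 0.292) and -0.18 in females (exact permutation p = 0.803), which became 0.24 without female sham 7.

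**Figure D5:**
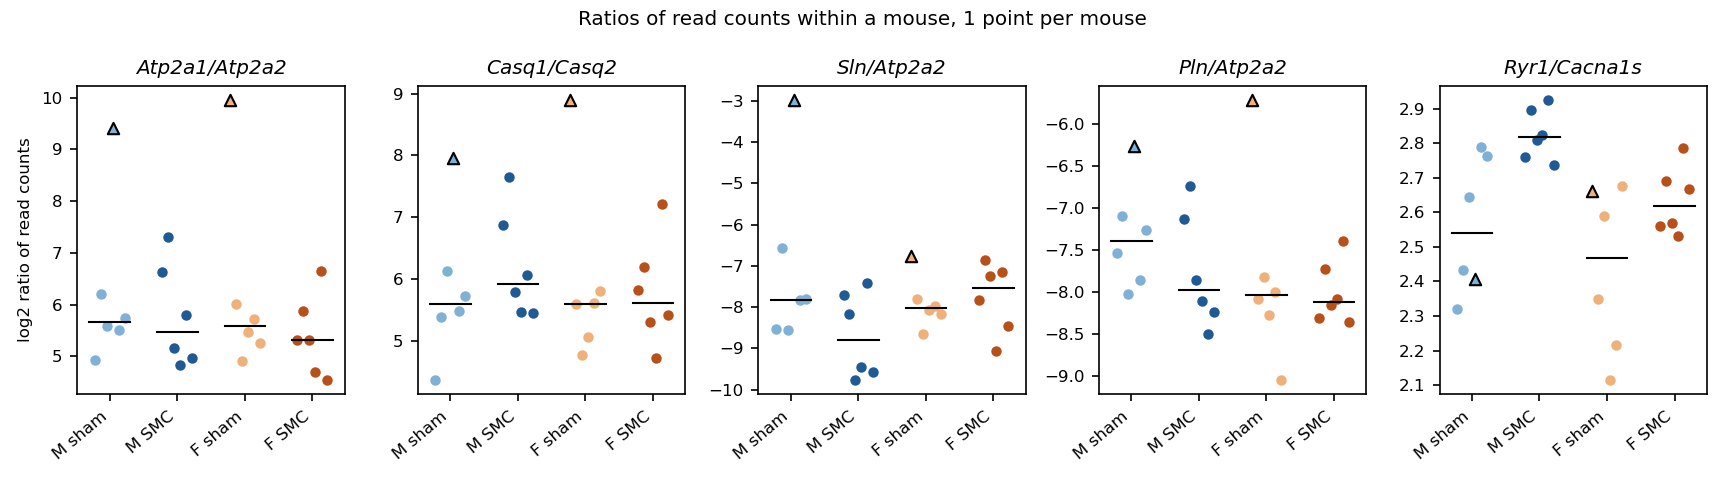
Log2 ratio of read counts within each mouse for 5 pairs of genes, by group, with a bar at the group median; triangles mark male sham 4 and female sham 7. In the Ryr1/Cacna1s panel the SMC males (6.66 to 7.59 on the linear scale) lie mostly above the sham males (4.998 to 6.90), and in the Atp2a1/Atp2a2 panel the triangles lie far above all other mice.

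The 10 genes were set beside 43 others of muscle calcium handling, of which 42 were matched to the counts and 41 were tested. EdgeR called 0 of the 41 in each of the 5 comparisons, next to the shares of all genes given above. At an unadjusted p under 0.05 there were 6 higher and 1 lower in males, 6 higher and 1 lower in females, and 9 higher and 2 lower in the average, beside the shares of all genes at that p given above. The median average log2 fold change of the 41 was 0.067, against -0.0089 over all genes tested. In both sexes Calm2, which encodes calmodulin, had the largest estimate (0.40 in males, 0.39 in females, average edgeR FDR = 0.0910), and Mrln, which encodes the pump inhibitor myoregulin, had the smallest (-0.53 in males, -0.49 in females, average edgeR FDR = 0.109). Calm2 has near-identical copies in the genome, so its reads may be split. Next came Camk2a, a calcium and calmodulin dependent kinase, at 0.33 in males and Slc8a3, a sodium-calcium exchanger, at 0.38 in females. The next lowest were Cacng1, a subunit of the voltage sensor, at -0.22 in males and Asph, of the junction of the store, at -0.33 in females.

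Close to the threshold in the average were Cacnb1, the beta subunit of the voltage sensor complex, at 0.28 (edgeR FDR = 0.0532) and Hrc, a calcium-binding protein of the store, at 0.20 (edgeR FDR = 0.0552), which were chosen for mention after their values were seen. DESeq2 called both, with Calm2 as the third, and limma called both with Camk2a and Camk2g. In the average DESeq2 called 4.51% of all genes with an adjusted p, and limma 3.3% of those tested. On library totals without TMM, where the median of all genes was -0.14, the 6 calls of the 41 in the average were all lower, namely Mrln (-0.64), Asph (-0.35), Micu2 (-0.25), Tmem38b (-0.24), Jsrp1 (-0.19) and Bin1 (-0.18), and Asph was also called in females (-0.47). In that setting 11.3% of all genes were called in the average and 1.31% in females. Without male sham 4 and female sham 7, the 3 of the 41 called in the average were kinase subunits, namely Camk2a (0.35), Camk2b (0.33) and Camk2g (0.24), and Camk2g was also called in females (0.29). The shares of all genes called there were 3.18% in the average and 0.936% in females. In males Itpr1, a release channel opened by inositol trisphosphate, was the 1 gene of the 41 whose 6 SMC mice all lay above the 6 sham mice, which may be set against 0.902% of all genes that did not overlap in either direction.

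The genes most like each of the 10 over 24 libraries were named by Pearson's r of group-centred log2 CPM, as a description. For Atp2a2 they were Myh7b (0.98), Tpm3 (0.98) and Tnnt1 (0.97), genes of slow and cardiac muscle filaments, and over 22 libraries r was 0.93, 0.93 and 0.95. For Casq2 they were Nrp1 (0.98), Prkg1 (0.97) and Nnt (0.97), which gave 0.94, 0.93 and 0.91 over 22. Atp2a1 was most like Myh4, the fastest myosin heavy chain (0.96, and 0.93 over 22), and Pvalb was most like Tpm1 (0.97, and 0.95 over 22) and Ckm (0.95, and 0.93 over 22). Ryr1 was most like Synrg (0.95), Sptb (0.94) and Speg (0.93), which were also its 3 closest genes over 22 libraries. Cacna1s was closest to Eloa (0.92, and 0.92 over 22) and Jph1 to Riok3 (0.94, and 0.90 over 22). For Casq1 it was Eml1 (0.89), which gave 0.85 and came in place 6 over 22 libraries, and for Pln it was Grtp1 (0.89), which gave 0.74 and came in place 27. Sln had the loosest neighbours, led by Farp1 at 0.79, and r was 0.65 over 22 libraries.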

How the data were processed

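Total RNA of mouse gastrocnemius was depleted of ribosomal RNA and made into strand-specific libraries by the authors, 1 per mouse. The deposited values are raw read counts per Ensembl gene, without normalization. The submitters' processing notes name cutadapt 1.16, STAR 2.7.9a, featureCounts 1.6, DESeq2 1.34.0 and the build GRCm39, and the annotation release and strand setting are not given in the sources used here. Groups were taken from the labels, which name no batch.

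Genes kept by filterByExpr (16408) were normalized by TMM and fitted with 1 mean per group by edgeR 4.0.16 in R 4.3.3, with two-sided quasi-likelihood tests and FDR under 0.05. CPM used TMM library sizes, and log2 CPM a prior count of 2. Ratios used raw counts plus 0.5. Correlations were run in Python with scipy. Alternatives were DESeq2 1.42.0, limma 3.58.1 with sample weights, other filters and scalings, and left-out libraries. The edgeR step was tested on simulated data. Symbols (52083 of 55416 genes), exon lengths and overlaps came from GENCODE M21 on GRCm38, and no coordinates were carried between builds. Xist and Ddx3y went against the labelled sex in 0 libraries, and the closest of 60 pairs within groups had a chi-square of 10.7 per degree of freedom, so all 24 were counted as separate mice.

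The 10 genes, the lists and the alternatives were chosen with earlier results of these data known. Named besides the 10 were listed genes called in any comparison, the 2 largest and 2 smallest changes of the wider list in each sex, and for each of the 10 the 3 genes of highest r, or the first of them. The counts of the wider list under other settings, and the genes named from them, were added after seeing the data.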

Additional observations from a re-analysis of the deposited data

Results flagged for a closer look

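Within each group of 6 mice, the highest or lowest value of each gene and ratio was compared with the rest by Dixon's criterion (the gap to the nearest other value, as a share of the group's range), which chance meets in about 1 of 20 groups. It was met in 12 of 60 groups, and male sham 4 or female sham 7 was the library in 11 of the 12. These 60 groups are not independent, since the ratios are built from the same genes.

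Atp2a2 was at 46.4 CPM in male sham 4 (others 295 to 549) and at 39.8 CPM in female sham 7 (others 292 to 758). Casq2 was at 4.76 CPM in male sham 4 (others 22.7 to 45.9) and at 4.24 CPM in female sham 7 (others 22.6 to 45.0). Pln was at 0.579 CPM in male sham 4 (others 1.88 to 2.94), and Sln was at 0.341 CPM in female sham 7 (others 1.28 to 2.49). The ratios of counts that contain a slow gene lay high in the same mice. Atp2a1 to Atp2a2 was 684 in male sham 4 (others 30.4 to 73.5) and 994 in female sham 7 (others 30.1 to 64.5), and Casq1 to Casq2 was 477 in female sham 7 (others 27.1 to 56.1). Sln to Atp2a2 was 0.127 in male sham 4 (others 0.00264 to 0.0106), and Pln to Atp2a2 was 0.0190 in female sham 7 (others 0.00189 to 0.00439). Apart from these libraries, Ryr1 was at 11494 CPM in female SMC 23, above the 8834 to 9702 CPM of the other SMC females.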

How the results depend on the processing

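No paired analysis was made, because the labels number the libraries in sequence and name no pairs of mice. According to the paper, sham and SMC mice were housed in pairs in some experiments. Whether that holds for these mice is not given. Of 1200 log2 fold changes of the 10 genes with 1 library left out, 64 changed sign (the largest of these at 0.187 in size) and 1 came to pass the threshold. Of 365 under other settings, 24 changed sign (at most 0.174) and 2 came to pass it. The exceptions were Casq1 and Ryr1. Averaged over the sexes, 2 of the 10 genes were called without male sham 4 and female sham 7, and 0 to 1 with 1 library left out, the 1 being Casq1 without female sham 7. On library totals without TMM the median gene itself shifted to -0.13 in males, -0.15 in females and -0.14 in the average. The causes of the changes below were not tested.

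The sign changed as follows on the log2 scale. With limma and sample weights, the values were 0.0017 for Jph1 in males, -0.045 for Casq2 in the average, -0.067 for Casq1 in the sex difference, and 0.0012 for Casq1 and -0.013 for Casq2 between sham groups. On library totals without TMM they were -0.072 for Pln, -0.040 for Cacna1s and -0.072 for Pvalb in males, -0.068 for Cacna1s and -0.061 for Jph1 in females, and -0.054 for Cacna1s, -0.11 for Jph1 and -0.11 for Casq2 in the average. On library sizes without the 10 genes of most counts they were -0.0025 for Cacna1s in females, and -0.020 for Jph1 and -0.012 for Casq2 in the average. Without a filter Atp2a1 was at -0.0052 in the sex difference. Without both libraries they were -0.12 for Pln and 0.058 for Jph1 in males, 0.070 for Sln and -0.17 for Casq2 in the average, -0.051 for Atp2a1 and -0.16 for Casq1 in the sex difference, and 0.10 for Casq1 between sham groups. The log2 ratio differences became 0.19 for Atp2a1/Atp2a2 in males, 0.41 for Casq1/Casq2 in females and 0.24 for Pln/Atp2a2 in females.

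With 1 library left out, ranges that cross 0 in males were -0.11 to 0.21 for Pln, -0.11 to 0.058 for Jph1, -0.44 to 0.00065 for Casq2 and -0.038 to 0.11 for Pvalb. In females they were -0.072 to 0.13 for Cacna1s and -0.013 to 0.15 for Jph1. In the average they were -0.24 to 0.17 for Sln, -0.00032 to 0.12 for Cacna1s, -0.032 to 0.058 for Jph1 and -0.065 to 0.15 for Casq2. In the sex difference they were -0.16 to 0.12 for Atp2a1, -0.41 to 0.067 for Atp2a2, -0.047 to 0.24 for Ryr1, -0.068 to 0.15 for Cacna1s, -0.19 to 0.0011 for Jph1 and -0.13 to 0.096 for Casq1. Between sham groups they were -0.25 to 0.026 for Atp2a1, -0.25 to 0.032 for Ryr1, -0.14 to 0.076 for Casq1 and -0.19 to 0.25 for Casq2. The ratio ranges were -0.75 to 0.19 for Atp2a1/Atp2a2 in males and, in females, -0.47 to 0.41 for Casq1/Casq2, -0.42 to 0.24 for Pln/Atp2a2 and -0.041 to 0.40 for Sln/Atp2a2.

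Calls over all genes varied more. In males they were 0 by edgeR, 130 by DESeq2 and 93 by limma. In females the 56 became 260 by DESeq2, 16 by limma, 215 without TMM, 92 without the 10 genes of most counts, 155 without both libraries and 14 when each sex was fitted alone. In the average the 388 became 776 by DESeq2, 1861 without TMM, 189 without a filter and 526 (3.18%) without both libraries. The sex difference had 0 calls, and 1 by DESeq2. Between sham groups the 324 became 582 by DESeq2, 179 without TMM and 511 without both libraries. With 1 library left out the counts were 0 to 78 in males, 0 to 147 in females, 236 to 501 in the average, 0 to 1 in the sex difference and 187 to 487 between sham groups. The fit of a single sex gives no average, sex difference or sham comparison.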
